A study of Mus musculus with 8 samples.

Results

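The genes described are 10 members of the fibroblast growth factor (FGF) pathway, chosen by symbol: the receptor genes Fgfr1, Fgfr2, Fgfr3 and Fgfr4, the Sprouty genes Spry1, Spry2 and Spry4, and the target genes Etv4, Etv5 and Dusp6. Out of 24538 genes in the deposited count files all 10 were found, and all 10 were among the 15151 genes that passed the filter on low counts. Fgfr4 passed that filter through Merkel libraries alone, since it had 0 counts in every IFE library.

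RNA was sequenced from 4 groups of sorted skin cells, with 2 libraries each and 8 in all: Merkel cells and IFE cells, each from paw and from back skin. All came from newborn mice at postnatal day 0 with the genotype Atoh1-GFP, in which green fluorescent protein (GFP) marks cells that express Atoh1, so the IFE cells carry the reporter allele too and differ from the Merkel cells in the sort gate and not in genotype. Merkel cells, the touch receptors of the epidermis, were gated on GFP and EpCAM, with Sca1 absent. The epidermal cells called IFE, a name used here without expansion because none is given, carried EpCAM and Sca1 and lacked GFP. Whether each library was a different animal or a pool, and whether paw and back skin shared animals, is not stated in the labels, so the tests see only the spread of these libraries, which may be technical.

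FGF receptors are receptor tyrosine kinases that signal through the adaptor Frs2 to Ras and the MAP kinase cascade. The signal switches on genes that limit it: Sprouty proteins restrain the path from receptor to Ras and MAP kinase, and Dusp6 is a phosphatase that inactivates ERK. Etv4 and Etv5 are ETS transcription factors that FGF signalling induces in many developing organs. In skin, an epithelial splice form of Fgfr2 receives Fgf7 and Fgf10 from the dermis and supports keratinocyte growth and appendage formation. The Sprouty, Etv and Dusp6 genes also respond to other receptors that act through MAP kinase.

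Libraries held between 11139306 and 26195076 counts. The unit of level is CPM, counts scaled to library size with TMM factors. Where genes are set beside each other, it is the FPKM of the authors, which is also scaled to transcript length. All 8 Merkel markers were higher and all 7 basal keratinocyte markers lower in Merkel cells at both sites. Summed over the 7 basal markers the level was 1073 to 3451 CPM in Merkel libraries and 24060 to 40931 CPM in IFE libraries. The library labelled back IFE 2 went against its label in the Hox genes, which mark body position: across 28 of them it correlated at 0.753 and 0.883 with paw IFE libraries 1 and 2 and at -0.075 with back IFE library 1, as correlations over genes and not over replicates. It is called back IFE library 2 as labelled, and the main results of back skin are also given without it. The 8 immune and Langerhans cell markers summed to 1101 and 177 CPM in back IFE libraries 1 and 2, 33.0 to 55.5 CPM in paw IFE libraries and 0.645 to 8.87 CPM in Merkel libraries, and their part in the back IFE levels was not tested. Replicates differed most in paw Merkel cells, by a median absolute log2 difference of 1.00 between libraries 1 and 2, against 0.51 to 0.74 in the other groups. Each adjusted p comes, unless another tool is named, from edgeR's quasi-likelihood test, adjusted over 15151 genes by the Benjamini-Hochberg method. A gene was called where it was at most 0.05. With a library left out the filter was run anew, and the adjustment covered 16163 to 16425 genes. Without a filter on low counts it covered 19152 genes. A call gained or lost in these fits thus also reflects another set of genes. In bulk RNA, fewer cells of a type and less RNA per cell cannot be told apart.

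Fgfr2 was the most abundant of the 10 genes in every group and was lower in Merkel cells at both sites. Its level was 380 and 558 CPM in paw Merkel libraries 1 and 2 and 2337 and 2007 CPM in paw IFE libraries 1 and 2. In back skin it was 129 and 219 CPM in Merkel libraries 1 and 2 and 2316 and 2883 CPM in IFE libraries 1 and 2. All 4 Merkel libraries lay below all 4 IFE libraries, and those of back skin lay lowest. The log2 fold change of Merkel against IFE was -2.21 (SE 0.37, adjusted p = 0.00432) in paw and -3.90 (SE 0.39, adjusted p = 9.18e-05) in back skin, a 4.63-fold and a 14.9-fold lower level. With each library left out in turn it ran from -2.51 to -1.98 in paw and from -4.33 to -3.59 in back skin, with an adjusted p of at most 0.00906, and in back skin it was -3.74 without back IFE library 2. The paw call was lost in a limma test on log2(FPKM + 1) without a filter (adjusted p = 0.0693). The gene lies on chromosome 7 from 130162451 to 130266808 on the minus strand (RefSeq, GRCm38.p6). Counts per gene do not tell its epithelial and mesenchymal splice forms apart.

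Fgfr3, a receptor also made by keratinocytes, was lower in Merkel cells as well. It measured 16.9 and 22.1 CPM in paw Merkel libraries 1 and 2 against 164 and 169.9 CPM in paw IFE libraries 1 and 2. In back skin it measured 16.4 and 13.3 CPM in Merkel libraries against 115 and 229.8 CPM in IFE libraries 1 and 2. The 4 Merkel libraries were close to each other and below every IFE library, while the IFE libraries of back skin lay far apart. On the log2 scale the change was -3.10 (SE 0.45, adjusted p = 0.00175) in paw and -3.54 (SE 0.46, adjusted p = 0.000475) in back skin, and the latter was -2.96 without back IFE library 2 (adjusted p = 0.00155). Fgfr3 spans 33721724 to 33737068 on chromosome 5, and 13.9% of its exonic bases in GENCODE vM21 overlap a gene on the other strand. The strand setting of the counting is not given in the sources used here, so reads of the overlapping gene cannot be told from those of Fgfr3 in that stretch.

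The upstream sequences of the receptors that fell together are shown beside that of Fgfr4, the receptor found in Merkel libraries alone, to compare their base composition. Each is the 250 bases before the RefSeq start in GRCm38.p6, written 5′ to 3′ along the gene's strand, with CG dinucleotides in capitals. Fgfr2 (chr7:130266809-130267058, minus strand), Fgfr3 (chr5:33721474-33721723, plus strand) and Fgfr4 (chr13:55152568-55152817, plus strand) read as follows.
Fgfr2: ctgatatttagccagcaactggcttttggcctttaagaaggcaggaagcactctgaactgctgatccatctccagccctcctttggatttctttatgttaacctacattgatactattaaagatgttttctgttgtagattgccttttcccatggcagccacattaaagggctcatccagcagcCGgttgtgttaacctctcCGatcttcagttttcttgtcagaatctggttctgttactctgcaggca
Fgfr3: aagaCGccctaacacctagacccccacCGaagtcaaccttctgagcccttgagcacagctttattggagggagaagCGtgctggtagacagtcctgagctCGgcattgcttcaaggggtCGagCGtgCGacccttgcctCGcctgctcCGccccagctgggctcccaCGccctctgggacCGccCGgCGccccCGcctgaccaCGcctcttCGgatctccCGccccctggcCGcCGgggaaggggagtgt
Fgfr4: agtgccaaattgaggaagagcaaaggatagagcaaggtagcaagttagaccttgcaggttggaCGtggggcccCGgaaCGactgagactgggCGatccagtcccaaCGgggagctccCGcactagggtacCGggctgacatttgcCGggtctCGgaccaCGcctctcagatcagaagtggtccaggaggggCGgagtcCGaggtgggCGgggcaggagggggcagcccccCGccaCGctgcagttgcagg
The window of Fgfr2 holds 2 CG and is 44.0% G or C, that of Fgfr3 holds 19 CG at 66.8%, and that of Fgfr4 holds 15 CG at 64.0%. A second window of Fgfr3 (chr5:33722056-33722305), not shown, holds 24 CG at 72.8%. The median over 32851 windows of the same length in the RefSeq table is 6 CG. The receptors that were both lower in Merkel cells thus differed in the CG content of this window. For Fgfr2 it lies at a RefSeq start, while the GENCODE vM21 gene extends upstream to 133123350 on chromosome 7. No window at another start of Fgfr2 was examined. The ETS-type motif CCGGAA, searched on both strands, is present in the window of Fgfr4 and absent from those of Fgfr2, Fgfr3, Spry1, Spry2, Dusp6 and Etv5, and 12% of all such windows hold it. A match is a description of the letters and not a binding site. Windows of 7 of the 10 genes were used here, and those of Fgfr1, Spry4 and Etv4 were not examined.

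Fgfr1, the receptor gene most often linked to mesenchyme, did not differ past the threshold between the cell types. The gene lies on chromosome 8 from 25518759 to 25575718. It measured 65.2 and 44.6 CPM in paw Merkel libraries and 85.8 and 58.6 CPM in paw IFE libraries, so the groups overlapped. In back skin it measured 43.5 and 32.8 CPM in Merkel libraries, with 7.92 CPM in IFE library 1 and 48.8 CPM in IFE library 2. The log2 fold change was -0.39 (95% interval -1.92 to 1.13, adjusted p = 0.808) in paw and 0.43 (95% interval -1.10 to 1.96, adjusted p = 0.724) in back skin. The back value turned on the IFE libraries: leaving out back IFE library 2 gave 2.26 (adjusted p = 0.0593), and leaving out back IFE library 1 gave -0.36. Summed over the 8 fibroblast markers, back IFE library 1 held 92.6 CPM and back IFE library 2 held 412 CPM, against 392 to 437 CPM in paw IFE and 77.9 to 170.5 CPM in Merkel libraries. Of those markers 7 of 8 had counts in back IFE library 2 and 5 of 8 in back IFE library 1, and Twist2 was at 0 in all 8 libraries. The markers did not all go the same way: in back skin Col1a2 was called higher in Merkel cells, and Col3a1 and Dcn lower. Their part in the level of Fgfr1 was not tested.

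Fgfr4, on chromosome 13 from 55152818 to 55168759, had 121 and 3 counts in paw Merkel libraries 1 and 2 and 24 and 4 counts in back Merkel libraries 1 and 2. It had 0 counts in all 4 IFE libraries, which allows up to 0.114 to 0.163 CPM per library at 3 counts. The Merkel levels were 5.80 and 0.28 CPM in paw and 1.83 and 0.39 CPM in back skin, so most of the signal came from library 1 of each site. With 3 counts over both IFE libraries taken as the floor, Fgfr4 was at least 45.4-fold higher in paw and at least 16.5-fold higher in back Merkel cells. The paw bound rests on paw Merkel library 1: without it 3 counts remain, no more than the floor, and no fold can be given, while dropping another paw library gave bounds of 20.5-fold to 86.7-fold. In back skin the bound was 6.81-fold without back IFE library 2, 5.82-fold without back Merkel library 1, 9.68-fold without back IFE library 1 and 27.2-fold without back Merkel library 2. Neither difference passed the edgeR test (adjusted p = 0.157 and 0.14, the latter 0.382 without back IFE library 2), while DESeq2 called the one in paw (adjusted p = 0.0326). These floors and bounds account for counting error alone, since the RNA was amplified and reads are not separate molecules. In the FPKM of the authors Fgfr4 stood at 2.06 and 0.196 in paw Merkel libraries and at 0.231 and 0 in back Merkel libraries. It stood at 0 FPKM in all IFE libraries, as in back Merkel library 2. Over the alternatives its back log2 fold change fell as low as 0.15.

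**Figure D1:**
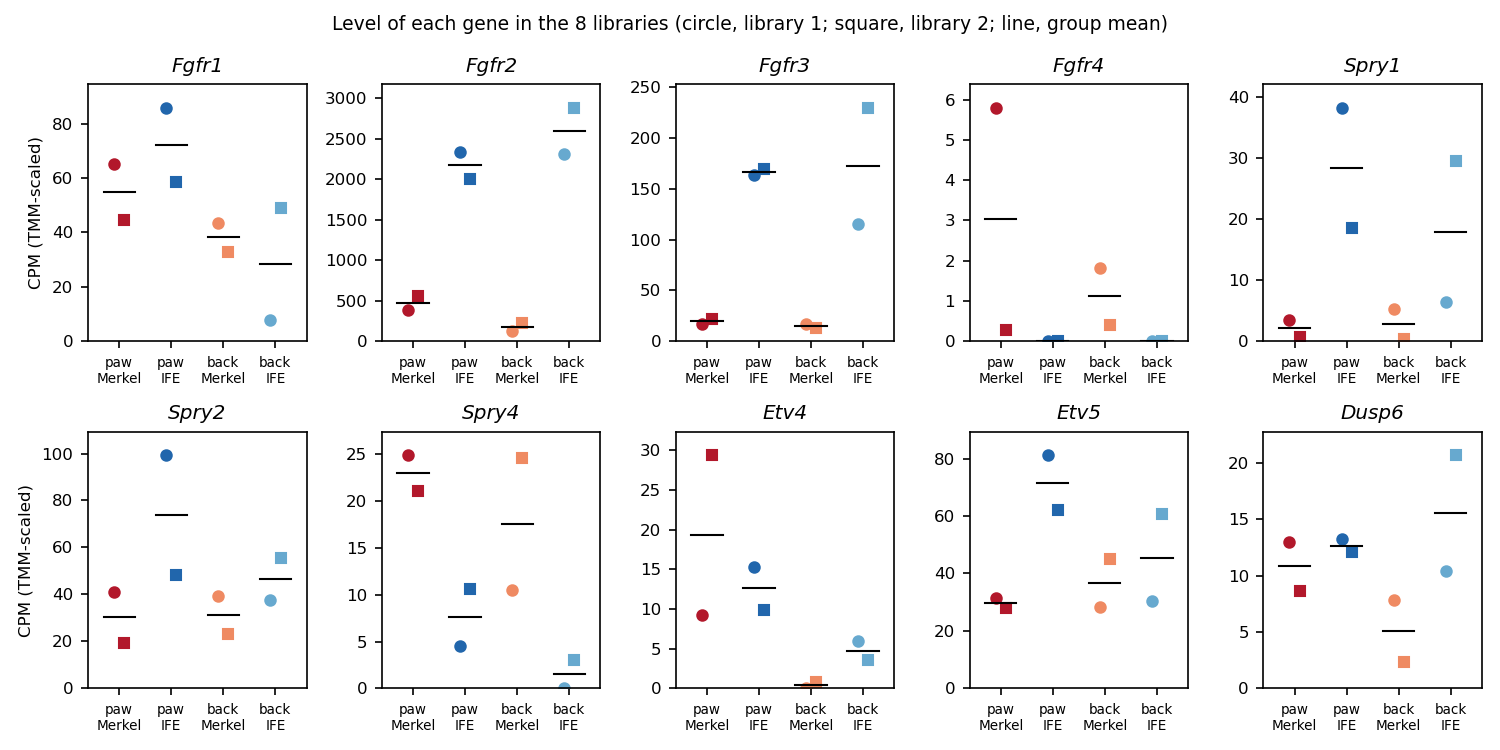
CPM after TMM scaling (vertical axis, starting at 0, a scale of its own for each gene) of the 10 genes in the 4 groups (horizontal axis), with circles for library 1, squares for library 2 and a line at the group mean. Fgfr2 and Fgfr3 sit low in all 4 Merkel libraries, Fgfr4 is at 0 in the 4 IFE libraries, and the libraries of a group lie far apart for Etv4 in paw Merkel cells (9.30 and 29.4 CPM).

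Per transcript length, the receptor genes together were less abundant in Merkel cells. The 4 receptors summed to 116 and 183 FPKM in paw Merkel libraries, 607 and 553 FPKM in paw IFE, 53.5 and 77.0 FPKM in back Merkel and 567 and 741 FPKM in back IFE libraries. Fgfr2 made up 68.4% to 87.8% of that sum in Merkel libraries and 87.9% to 93.1% in IFE libraries. Fgfr1 made up 7.0% to 19.6% in Merkel libraries and 0.369% to 3.16% in IFE libraries, so its share was higher in every Merkel library although its level overlapped between the cell types. In IFE cells Fgfr3 ranked second among the 10 genes, at 49.3 ± 7.85 FPKM in paw, where it overlapped with Spry2, and 56.2 ± 26.8 FPKM in back skin (mean ± SD, n = 2). In Merkel cells of both sites that rank went to Spry2, at 16.1 ± 5.79 FPKM in paw and 19.1 ± 5.54 FPKM in back skin. In paw Merkel cells the ranges of Spry2, Etv4 and Fgfr1 overlapped, so their order is not fixed.

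**Figure D2:**
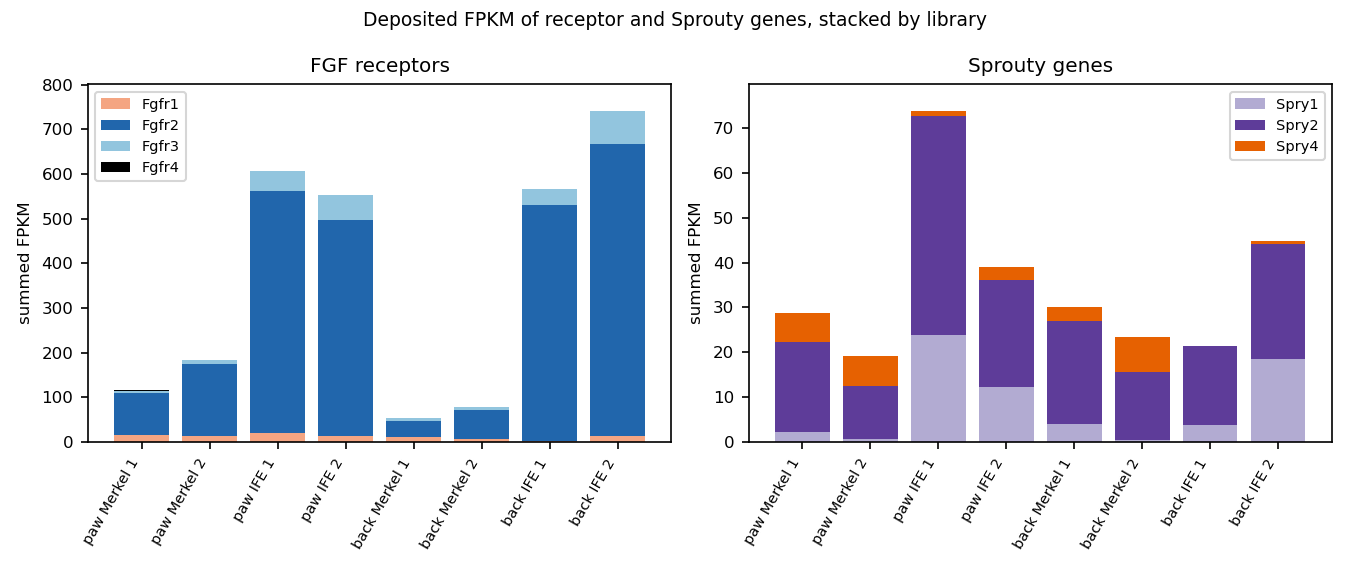
Deposited FPKM (vertical axis, starting at 0) of the 4 receptor genes (left) and the 3 Sprouty genes (right), stacked for each of the 8 libraries (horizontal axis), with no error since each bar is 1 library. Receptor bars reach 53.5 to 183 FPKM in Merkel libraries and 553 to 741 FPKM in IFE libraries, mostly Fgfr2, and Spry4 takes a larger share of the Sprouty bar in each Merkel library.

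At neither site did a Sprouty gene pass the edgeR threshold, and their log2 fold changes did not share a sign. Spry1 measured 3.5 and 0.65 CPM in paw Merkel libraries against 38.2 and 18.6 CPM in paw IFE libraries, and 5.25 and 0.39 CPM in back Merkel libraries against 6.35 and 29.5 CPM in back IFE libraries 1 and 2. All 4 Merkel libraries lay below all 4 IFE libraries, with back Merkel library 1 and back IFE library 1 closest. Merkel against IFE, Spry1 had a log2 fold change of -3.75 (SE 1.36, adjusted p = 0.139) in paw and -2.66 (SE 1.30, adjusted p = 0.194) in back skin, and in back skin -1.16 without back IFE library 2 (adjusted p = 0.684). DESeq2 called Spry1 in paw (adjusted p = 0.0146). Spry1 lies on chromosome 3 from 37639947 to 37644599, and 24.4% of its exonic bases in GENCODE vM21 overlap a gene on the other strand.

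Spry2, the most abundant Sprouty gene in every library by FPKM, measured 40.9 and 19.5 CPM in paw Merkel libraries against 99.3 and 48.1 CPM in paw IFE libraries. In back skin the groups overlapped, with 39.2 and 23.2 CPM in Merkel and 37.6 and 55.4 CPM in IFE libraries. Spry2 had a log2 fold change of -1.29 (95% interval -2.56 to -0.02, adjusted p = 0.232) in paw and -0.58 (95% interval -1.84 to 0.68, adjusted p = 0.534) in back skin, where it was -0.27 without back IFE library 2. The gene lies on chromosome 14 from 105891947 to 105896819.

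Spry4 had log2 fold changes of the opposite sign. It measured 24.9 and 21.1 CPM in paw Merkel libraries against 4.56 and 10.6 CPM in paw IFE libraries, and 10.5 and 24.6 CPM in back Merkel libraries against 0.05 and 3.05 CPM in back IFE libraries 1 and 2. Both Merkel libraries of a site lay above both of its IFE libraries, and back Merkel library 1 (10.5 CPM) and paw IFE library 2 (10.6 CPM) were about equal. The log2 fold change was 1.6 (SE 1.26, adjusted p = 0.516) in paw and 3.48 (SE 1.36, adjusted p = 0.108) in back skin, neither past the threshold. In back skin Spry4 was called by DESeq2 (adjusted p = 0.0134) and, without back IFE library 2, by edgeR (against 1 count in back IFE library 1, adjusted p = 0.00915). Spry4 made up 10.5% to 34.9% of the summed Sprouty FPKM in Merkel libraries and 0.0619% to 7.27% in IFE libraries. Spry1 had the opposite order, with 1.32% to 13% of it in Merkel libraries and 17.6% to 41.3% in IFE libraries.

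Of the target genes, Etv5 was lower in both paw Merkel libraries (31.3 and 28.1 CPM) than in both paw IFE libraries (81.2 and 62.0 CPM), without passing the threshold (log2 fold change -1.27, 95% interval -2.40 to -0.14, adjusted p = 0.185). In back skin its groups overlapped, with 28.4 and 44.9 CPM in Merkel and 30.5 and 60.6 CPM in IFE libraries 1 and 2. The log2 fold change there was -0.31 (adjusted p = 0.723), and 0.26 without back IFE library 2. Dusp6 measured 13 and 8.67 CPM in paw Merkel and 13.3 and 12.1 CPM in paw IFE libraries, which overlapped (log2 fold change -0.23, 95% interval -2.23 to 1.78, adjusted p = 0.925). In back skin it measured 7.83 and 2.34 CPM in Merkel and 10.4 and 20.7 CPM in IFE libraries (log2 fold change -1.61, 95% interval -3.67 to 0.45, adjusted p = 0.271, and -1.03 without back IFE library 2). Dusp6 was thus lower in both back Merkel libraries, by less than the test can separate from the spread. Etv5 lies on chromosome 16 from 22381313 to 22439570 and Dusp6 on chromosome 10 from 99263231 to 99267489.

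Etv4, on chromosome 11 from 101769747 to 101785310, had the largest log2 fold change of the 10 between the Merkel groups. It had 194 and 319 counts in paw Merkel libraries 1 and 2, but 0 and 8 counts in back Merkel libraries 1 and 2. In CPM these are 9.30 and 29.4 against 0 and 0.78, where 0 counts allow up to 0.228 CPM. IFE libraries held 15.3 and 9.92 CPM in paw and 5.97 and 3.51 CPM in back skin. Merkel and IFE libraries overlapped in paw (log2 fold change 0.62, adjusted p = 0.834, and -0.44 without paw Merkel library 2), whereas both back Merkel libraries lay below both back IFE libraries (log2 fold change -3.63, SE 1.44, adjusted p = 0.113). Leaving out back IFE library 2 gave -3.96. The back difference was called by DESeq2 (adjusted p = 0.013) and, without back Merkel library 2, by edgeR (adjusted p = 0.0313).

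**Figure D3:**
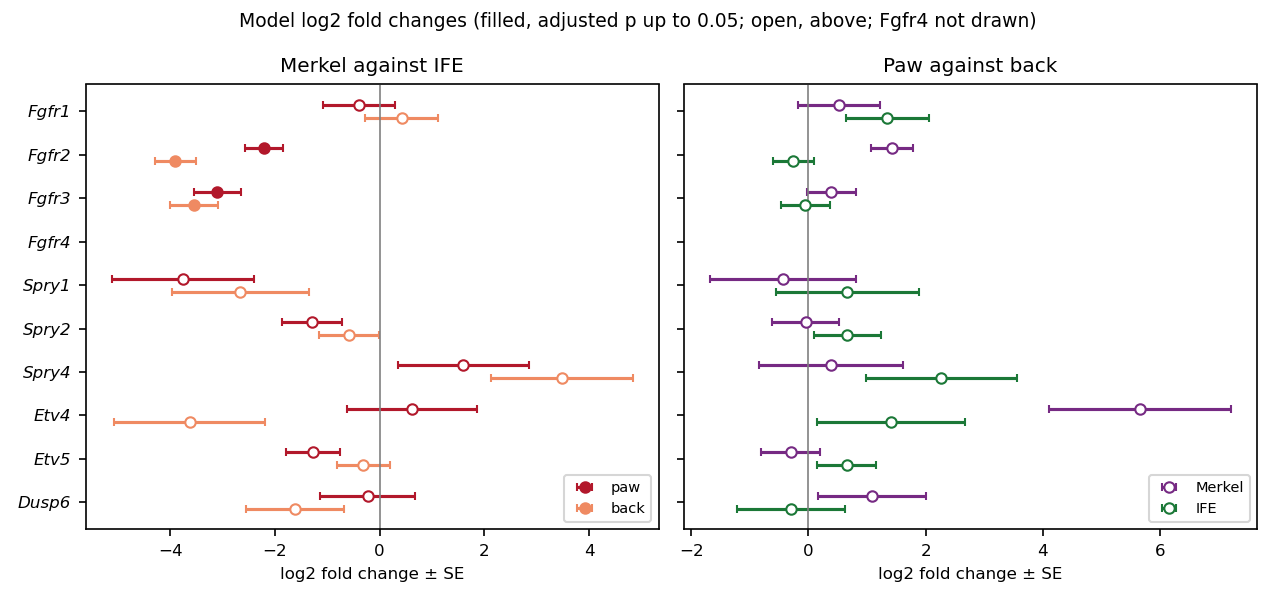
Log2 fold changes with their standard errors from the edgeR model (horizontal axis) for 9 of the 10 genes (vertical axis), Merkel against IFE cells in paw and back skin on the left and paw against back in Merkel and IFE cells on the right, with filled points for an adjusted p of up to 0.05 and Fgfr4 left out because its folds are bounds. Fgfr2 (-2.21 and -3.90) and Fgfr3 (-3.10 and -3.54) carry the filled points, and no point on the right is filled.

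At each site 2 of the 10 genes, Fgfr2 and Fgfr3, were lower in Merkel cells and 0 were higher. Over all 15151 genes 1.93% were called lower and 4.28% higher in paw (6.21% in all), and 7.45% lower and 7.99% higher in back skin (15.4% in all). The percentages for paw rest on 941 calls, and leaving out paw Merkel library 1 gave 2369, paw IFE library 1 gave 620 and paw IFE library 2 gave 561. Those for back skin rest on 2338 calls, and leaving out back Merkel library 2 gave 1307, back IFE library 1 gave 1555 and back IFE library 2 gave 1786. Without back IFE library 2 the group keeps 1 library. The back log2 fold changes were then -3.74 for Fgfr2, -2.96 for Fgfr3 and 8.15 for Spry4, the last against 1 count. At an unadjusted p under 0.05 there were 6 of the 10 in paw and 5 in back skin, where 21.1% and 30.5% of all genes stood. DESeq2 called 4 of the 10 at each site, Spry1 and Fgfr4 besides the receptors in paw and Spry4 and Etv4 in back skin, beside 15.6% and 27.7% of the 15128 genes it tested. The median log2 fold change of the 10 was -0.83 in paw and -1.09 in back skin (-0.65 without back IFE library 2), beside -0.04 and -0.06 over all genes tested. Within a site, Merkel and IFE libraries did not overlap for 2 of the 10 genes higher (Fgfr4 and Spry4) and 5 lower (Fgfr2, Fgfr3, Spry1, Spry2 and Etv5) in paw, beside 24.8% and 28.7% of all genes. In back skin they did not overlap for 2 higher (Fgfr4 and Spry4) and 5 lower (Fgfr2, Fgfr3, Spry1, Etv4 and Dusp6), beside 29.1% and 32.8% of all genes. In CPM, Fgfr2, Fgfr3 and Spry1 had all 4 Merkel libraries below all 4 IFE libraries, as 14.0% of all genes did. Fgfr4 had all 4 above in CPM, as 13.7% of all genes did, but stood at 0 FPKM in back Merkel library 2. Fgfr4 passed the filter through Merkel libraries alone, so its place in these counts and its DESeq2 call are no separate evidence of a difference. It had 3 counts in paw Merkel library 2 and 4 counts in back Merkel library 2.

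Merkel libraries also held transcripts of basal keratinocytes, and these can be set beside the members. As a percentage of the mean of the IFE libraries of the same site, the 7 basal markers together stood at 13.4% and 7.20% in paw Merkel libraries 1 and 2 and at 3.04% and 4.29% in back Merkel libraries 1 and 2. Fgfr2 stood at 17.5% and 25.7% in paw and at 4.97% and 8.41% in back Merkel libraries, above the marker sum in each library. Fgfr3 stood at 10.1% and 13.3% in paw and at 9.52% and 7.70% in back Merkel libraries, so in paw Merkel library 1 it was below the marker sum. Spry1 was below the marker sum in both paw Merkel libraries (12.3% and 2.27%) and in back Merkel library 2 (2.18%), and above it in back Merkel library 1 (29.2%). Among the markers themselves the percentages ran from 3.79% (Krt5) to 42.7% (Itga6) in paw and from 1.98% (Krt5) to 24.3% (Itga6) in back skin. In paw Fgfr2 lay below Itga6 in both Merkel libraries and below Krt15 and Trp63 in library 1. Otherwise it lay above the single markers there. In back skin Fgfr2 lay above Krt5, Krt14 and Krt15 and below Trp63 and Itga6 in both Merkel libraries. It was below Itgb4 only in library 1 and below Col17a1 only in library 2. Set against back IFE library 1 alone, the marker sum stood at 2.62% and 3.70% in back Merkel libraries 1 and 2, Fgfr2 at 5.58% and 9.45%, Fgfr3 at 14.2% and 11.5% and Spry1 at 82.7% and 6.15%, while Spry4 has 1 count in that library and no percentage is given. Suprabasal keratinocyte markers, of which 6 of 7 were in the files, summed to 5252 and 412 CPM in paw Merkel libraries 1 and 2, 6071 and 10636 CPM in paw IFE libraries, 1936 and 1064 CPM in back Merkel libraries and 7677 and 4599 CPM in back IFE libraries. Paw Merkel library 1 thus lay above back IFE library 2 and near paw IFE library 1 in these markers. The part of basal and suprabasal keratinocyte transcripts in the Merkel levels of these genes was not tested.

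**Figure D4:**
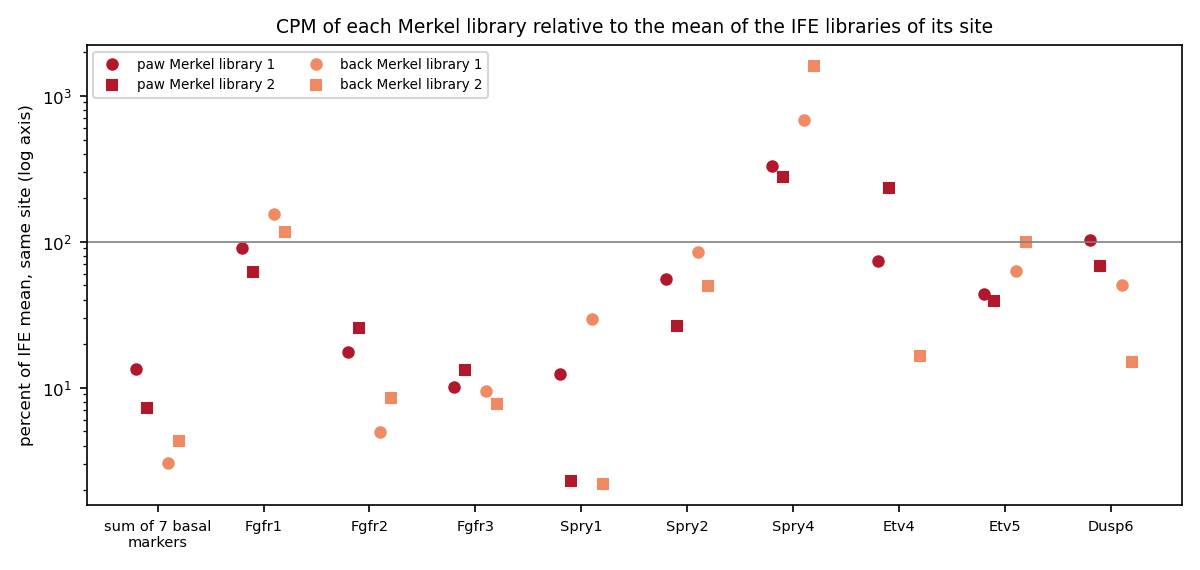
CPM of each Merkel library as a percentage of the mean of the IFE libraries from the same site (vertical axis, log scale) for the sum of 7 basal keratinocyte markers and 9 members (horizontal axis), with circles for library 1 and squares for library 2; the value of 0 for Etv4 in back Merkel library 1 cannot be drawn on this scale. Fgfr2, Fgfr3 and Spry1 lie well below the line at 100%, Spry4 lies above it in all 4 Merkel libraries (278% to 1585%, the back values against a mean that includes back IFE library 2), and the marker sum lies at 3.04% to 13.4%.

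The comparison of skin sites asks whether these genes differ between the paw and the back within a cell type. Between Merkel cells, Fgfr2 was higher in both paw libraries than in both back libraries (log2 fold change 1.43, SE 0.36, adjusted p = 0.178), and Etv4 likewise (log2 fold change 5.65, SE 1.55, adjusted p = 0.22). With edgeR 0 of the 10 passed the threshold, where 0.178% of all genes were called higher, 0.00660% lower and 0.185% in all. Of the 10 genes 2 (Fgfr2 and Etv4) reached 0.05 before adjustment, beside 10.2% of all genes. DESeq2 called both Fgfr2 (adjusted p = 0.0332) and Etv4 (adjusted p = 0.000267), beside 4.13% of all genes. By limma on log2(FPKM + 1) 0 members were called, beside 0.0559% of all genes. Without paw Merkel library 1, which leaves 1 library in that group, the edgeR log2 fold change of Fgfr2 was 1.69. Paw Merkel libraries lay above back Merkel libraries without overlap for 5 of the 10 genes (Fgfr1, Fgfr2, Fgfr3, Etv4 and Dusp6), beside 18.2% of all genes, and below for 0, beside 17.2%. The 7 basal keratinocyte markers all had a positive log2 fold change in this comparison too (median 1.15, 0 called), and their part in it was not tested.

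Between the IFE groups 0 of the 9 members with counts passed the threshold by edgeR, 0 reached 0.05 without adjustment, and neither DESeq2 nor limma on log2(FPKM + 1) called any, beside 0.602% and 0.00799% of all genes. Over all genes edgeR called 0%, and 4.24% had an unadjusted p under 0.05. Fgfr1, Etv4, Etv5 and Spry4 were higher in both paw IFE libraries than in both back IFE libraries, beside 20.2% of all genes, and 0 were lower in both, beside 20.2% as well. Without back IFE library 2, 0 of the 9 were called too, among 67 genes. Fgfr1 had the smallest p of these, with a log2 fold change of 1.35 (95% interval -0.21 to 2.90, adjusted p = 1), and 3.19 without back IFE library 2 (adjusted p = 0.105). For Fgfr2 the difference was -0.26 (95% interval -1.03 to 0.51) and for Fgfr3 -0.05 (95% interval -0.96 to 0.86), both as log2 fold changes, and without back IFE library 2 they were -0.09 and 0.53.

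The step from IFE to Merkel cells was also compared between the sites as an interaction. For Fgfr2 the difference in log2 fold change, paw minus back, was 1.69 (SE 0.50, 95% interval 0.59 to 2.79), which did not pass adjustment (adjusted p = 0.382), and 1.53 without back IFE library 2. Etv4 had a difference of 4.24 (SE 1.88, adjusted p = 0.548), and 4.58 without back IFE library 2. By edgeR 0 of 9 members and 0% of all genes passed, 2 of the 9 (Fgfr2 and Etv4) and 9.01% of all genes were under 0.05 before adjustment, and neither DESeq2 nor limma on log2(FPKM + 1) called any of the 9, beside 1.99% and 0.0160% of all genes. The 7 basal keratinocyte markers also had a positive difference each (median 1.30, 0 called), and their part in that of Fgfr2 was not tested. Without a filter on low counts edgeR called Fgfr2 (adjusted p = 0.0468), beside 305 of 19152 genes.

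The other genes of the pathway were read from lists of known function. Their counts are to be read against the 6.21% of all genes called in paw and the 15.4% called in back skin. Counts given without back IFE library 2 come from another fit with 1 library in that group. Neither share applies to them. Of 24 genes for FGF ligands and their binding proteins, 10 could be tested. Fgfbp1, a carrier protein that releases FGFs from the matrix, and Fgf11, an intracellular FGF, were the most abundant of them, at 90.2 and 28.4 FPKM over all libraries. Fgfbp1 was the single call in paw, lower in Merkel cells (log2 fold change -2.61, adjusted p = 0.0137), and it was lower in back Merkel cells too (-5.45 on the same log2 scale, adjusted p = 0.000183). In back skin Fgf13, another intracellular FGF, had 0 counts in both Merkel libraries against 32.2 and 25.9 CPM in IFE libraries, which makes it at least 226-fold lower in Merkel cells (adjusted p = 0.00696). This bound was 99.2-fold without back Merkel library 1, 127-fold without back Merkel library 2 and 251-fold without back IFE library 2. Fgf9, a secreted ligand, was higher, with 15.4 and 16 CPM in back Merkel libraries against 0.05 and 0 CPM in back IFE libraries (adjusted p = 0.0115, not called at 0.062 once back IFE library 2 was left out). Fgf14 was at least 170-fold higher in back Merkel cells (3.58 and 19.2 CPM against 0 counts, adjusted p = 0.0246). Leaving out back Merkel library 2 or either back IFE library ended the call of Fgf14 (adjusted p up to 0.196, with bounds of 53.2-fold to 99.7-fold), and without back Merkel library 1 its bound was 286-fold. In back skin 2 ligand genes were called higher and 2 lower, and without back IFE library 2 these were 0 and 2, with Fgfbp1 at -5.71 on the log2 scale. Of the back libraries, only those of the group where Fgf9, Fgf13 or Fgf14 was high could carry it past the filter. The back tests of these genes are thus no separate evidence of a difference. The median log2 fold change of the list was 0.03 in paw and -0.94 in back skin.

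Co-receptors and enzymes of heparan sulfate, the polysaccharide that FGFs need to bind their receptors, had 2 higher and 3 lower of 21 tested in paw, beside 6.21% of all genes called, and 2 higher and 3 lower of 20 in back skin, beside 15.4%. Without back IFE library 2 there were 1 higher and 3 lower in back skin, with log2 fold changes of -3.83 for Sdc1, -2.60 for Sdc4 and 5.45 for Sdc3. Sdc1 and Sdc4, syndecans of epithelia that were the most abundant of the list at 146 and 133 FPKM, were lower in Merkel cells at both sites. Sdc4 had log2 fold changes of -3.40 (adjusted p = 0.00725) in paw and -2.78 (adjusted p = 0.00967) in back skin, where the call ended when back Merkel library 2 was dropped (adjusted p = 0.0791). Sdc1 had -1.52 in paw (adjusted p = 0.0238, and up to 0.0811 when either paw IFE library was dropped, and 0.063 by limma on log2(FPKM + 1)) and -4.14 in back skin (adjusted p = 5.47e-05). Sdc3, a syndecan of neural cells, was higher at both sites, with 56.1 and 112 CPM in paw Merkel against 3.38 and 3.26 CPM in paw IFE libraries (log2 fold change 4.66, adjusted p = 0.00131) and a log2 fold change of 5.14 in back skin (adjusted p = 0.000467). Flrt1 was higher in back skin (log2 fold change 2.40, adjusted p = 0.0293), a call that ended when back Merkel library 2 or back IFE library 2 was dropped (adjusted p up to 0.162). Gpc3, a glypican, was lower in paw (log2 fold change -2.45, adjusted p = 0.0127). The calls that complete these counts were Flrt1 in paw and Sulf1, lower, in back skin. The median log2 fold change was -0.65 in paw and -1.14 in back skin. Between Merkel cells Sdc1 was higher in paw (log2 fold change 2.2, adjusted p = 0.0429), which no longer held when either back Merkel library was dropped (adjusted p up to 0.16), nor by limma on log2(FPKM + 1) (adjusted p = 0.121).

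Of 21 adaptors and Ras and MAP kinase genes, 0 were called in paw by edgeR, beside 6.21% of all genes. Before adjustment 5 passed, beside 21.1% of all genes at an unadjusted p under 0.05. DESeq2 called 4, beside 15.6% of all genes, and limma on log2(FPKM + 1) called 0, beside 867 of 12512 genes. In back skin 3 were higher and 1 lower by edgeR, a share near the 15.4% of all genes called there. Without back IFE library 2 there were 1 higher and 1 lower, Braf (log2 fold change 2.79) and Hras (-3.98). Hras was lower in back Merkel cells, with 8.37 and 7.13 CPM against 123 and 87.5 CPM (log2 fold change -3.76, adjusted p = 0.000834), and Braf was higher, with 995 and 1896 CPM against 209 and 242 CPM (log2 fold change 2.68, adjusted p = 0.00299). Sos1, an exchange factor for Ras, was higher by 1.28 on the log2 scale (adjusted p = 0.0261). Its call ended when back Merkel library 2 or either back IFE library was dropped (adjusted p up to 0.179). Nras and Braf were the most abundant of the list, at 121 and 61.8 FPKM. The median log2 fold change was 0.05 in paw and 0.43 in back skin.

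Of 22 further feedback and target genes 21 were tested, with 1 higher and 4 lower in paw and 0 higher and 3 lower in back skin, beside 6.21% and 15.4% of all genes called, so the share in back skin was near that of all genes. Without back IFE library 2 there were 1 higher and 2 lower in back skin, where Ccnd1 had a log2 fold change of -3.43 and Dusp9 an adjusted p of 0.00408. Ccnd1, the gene of cyclin D1, was lower in Merkel cells at both sites (log2 fold change -2.68, adjusted p = 0.0061 in paw, and -3.13, adjusted p = 0.00139 in back skin). Dusp9, an ERK phosphatase, had 0 and 0.10 CPM in back Merkel against 17.1 and 8.66 CPM in back IFE libraries (adjusted p = 0.00434). Of the back libraries only those of IFE cells could carry Dusp9 past the filter, so this test is no separate evidence of a difference. Ets2 was lower at both sites, with log2 fold changes of -1.62 (adjusted p = 0.0404) and -1.48 (adjusted p = 0.0323), and Dusp7 was lower in paw (-2.45, adjusted p = 0.0295). The calls of Ets2 and Dusp7 in paw ended when paw Merkel library 2 or either paw IFE library was dropped, and that of Ets2 in back skin when back Merkel library 1 or either back IFE library was (adjusted p up to 0.207). Ets1 was the fourth gene lower in paw. Egr1, an immediate early gene and the most abundant of the list beside Cblb (335 and 73.1 FPKM), was higher in paw (log2 fold change 1.18, adjusted p = 0.041), a call that ended when any of the paw IFE or back Merkel libraries was dropped (adjusted p up to 0.35). In back skin Egr1 went the other way without being called (log2 fold change -0.86, adjusted p = 0.0752), with both Merkel libraries below both IFE libraries. The difference of its log2 fold change, paw minus back, was 2.03 (adjusted p = 0.223). The median log2 fold change of the list was -0.17 at both sites.

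For each member the genes with the most similar profile over the 8 libraries were found among 8623 genes with a mean of at least 10 CPM, by the root mean square difference of centred log2 CPM. Likeness of profile says nothing of shared function or control. Nearest to Fgfr2 were Itga2 (0.23), Car12 (0.25) and Slc38a4 (0.29), beside a median of 1.74 over all genes compared. Nearest to Fgfr3 were Kif23 (0.32), Ncapg2 (0.39) and Ccnd2 (0.43), beside a median of 1.75. The profiles nearest to Etv5 (Mllt6, 0.20) and Spry2 (Pcgf2, 0.19) were about as close, but these members vary little, and the medians over all genes were 0.90 and 0.96. Nearest to Dusp6 was Atp6v1g1 (0.20, median 1.09) and to Fgfr1 Sdk1 (0.37, median 1.21). No gene came as close to Fgfr4 (Grasp, 0.85), Spry4 (Rapgef3, 0.69), Etv4 (Pitpnc1, 0.80) or Spry1 (Ugt1a5, 0.59). These last members had the widest spread over the 8 libraries.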

How the data were processed

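RNA-seq values of 8 libraries from 4 groups of sorted mouse skin cells were used. The authors deposited counts per gene for each library (whole numbers, 24538 genes) and a table of FPKM values (24453 genes); per the submitters' processing notes, the build was mm10 and the tools named are DESeq2 1.6.3, Subread 1.4.6 with its featureCounts, Cufflinks 2.2.1 and TopHat2 2.0.13, with no roles given. The annotation, strand setting and design of their test are not given in the sources used here. Per the labels, 10 ng RNA was amplified before library construction, so counts are not independent molecules. Library totals (11139306 to 26195076 counts) set the precision of low values.

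Counts were filtered with filterByExpr by group, scaled by TMM and fitted with 1 mean per group over the 8 libraries (4 residual degrees of freedom) in edgeR 4.0.16 (R 4.3.3), with quasi-likelihood tests of 5 contrasts; log2 CPM used a prior count of 2. Standard errors are the log2 fold change over the root of its F value, and 95% intervals use the same degrees of freedom as the test. The main alternatives were DESeq2 1.42.0, limma 3.58.1 on log2(FPKM + 1) or log2(FPKM + 0.1) for genes with a mean of at least 1 FPKM, RLE factors, other filters, the replicate number as a block, and leaving out each library; the medians, list counts, percentages and bounds without single libraries were added after seeing the data. The fit was also run on simulated counts with changes placed in paw Merkel libraries alone. That is a simpler setting and does not test the calls made here. The members and lists were chosen with earlier results of these data known. Named genes are all 10 members, from each pathway list up to 4 called genes with the smallest adjusted p per comparison and the 2 most abundant by FPKM, and the 3 nearest profiles of each member, of which the nearest are printed; Flrt1 and Ets1 in paw, Sulf1 in back skin, and Epha2, Met, Axl and, in back skin, Erbb2 fall outside it and were named after their values were seen. Positions and upstream sequences are from RefSeq on GRCm38.p6, the assembly also called mm10. The values of 1 gene of the adaptor list are not reported here.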

Additional observations from a re-analysis of the deposited data

How the results depend on the processing

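The calls of Fgfr2 and Fgfr3 as lower in Merkel cells at both sites held in all alternatives, except Fgfr2 in paw with limma on FPKM without a filter. DESeq2 called 2364 genes in paw, 4190 in back skin, 625 between Merkel cells, 91 between IFE cells and 301 in the interaction, against 941, 2338, 28, 0 and 0, and of the members it called 4, 4 and 2 in the first 3. Without a filter on low counts edgeR tested 19152 genes. It called 1920 in paw, 3320 in back skin, 452 between Merkel cells, 120 between IFE cells and 305 in the interaction. Of the members it called 3 in paw, 4 in back skin, 2 between Merkel cells and 1 in the interaction. A stricter filter (at least 10 counts in 4 libraries) gave 14 genes between Merkel cells, and RLE factors gave 1 in the interaction. With limma on log2(FPKM + 1), 7 genes were called between Merkel cells, 1 between IFE cells and 2 in the interaction, and with a pseudocount of 0.1 there were 13 between Merkel cells and 1 between IFE cells. Without a filter on FPKM there were 441 in paw and 8 between IFE cells, with 1 member in paw. Over these settings the calls in the pathway lists ran in paw from 1 to 3 for ligands, 1 to 7 for co-receptors, 0 to 4 for adaptors, 2 to 6 for feedback genes, 1 to 3 for splicing regulators and 3 to 7 for other receptor kinases (1, 5, 0, 5, 1 and 7 in the report). In back skin they ran from 3 to 4, 3 to 8, 4 to 5, 3 to 8, 2 to 4 and 6 to 9 in the same order (4, 5, 4, 3, 3 and 7 in the report). With limma on log2(FPKM + 1) without a filter, 8 of the named pathway calls in paw and 4 in back skin did not pass, and with the filter Sdc1 and Alk in paw and Esrp1 in back skin did not. The causes of these shifts were not tested. Leaving out each library in turn gave 561 to 2369 genes in paw, 1307 to 3376 in back skin, 1 to 177 between Merkel cells, 0 to 67 between IFE cells and 0 to 41 in the interaction, and 0 to 1 members between Merkel cells.

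Libraries with the same number in different groups did not deviate together (correlations of their deviations across genes from -0.04 to 0.08), so the numbers were not taken as pairs. With the replicate number as a block, 4 genes were called in the interaction and 1 between IFE cells, and 2 members were called at each site, as without it.

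Leaving out a library reversed the sign of some uncalled members. In Merkel against IFE the ranges were -0.44 to 1.21 for Etv4 and -0.57 to 0.033 for Dusp6 in paw, and -0.36 to 2.26 for Fgfr1 and -0.73 to 0.26 for Etv5 in back skin. Between Merkel cells they were -1.97 to 3.0 for Fgfr4, -2.12 to 2.46 for Spry1, -0.67 to 0.43 for Spry2, -0.060 to 1.13 for Spry4 and -0.56 to 0.066 for Etv5. Between IFE cells they were -0.057 to 2.16 for Spry1, -0.46 to 0.53 for Fgfr3 and -0.71 to 0.28 for Dusp6. In the interaction they were -2.80 to 1.78 for Spry1 and -0.14 to 0.86 for Fgfr3. Low counts limit Fgfr4, Spry4 in back IFE cells and Etv4 in back Merkel cells.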

Other observations

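Other receptor tyrosine kinases, which share the Sprouty and Dusp6 feedback with FGF receptors, were read from a list of 25. In paw 3 were higher and 4 lower of 20 tested, and in back skin 4 higher and 3 lower of 21, beside 6.21% and 15.4% of all genes called. Without back IFE library 2 the back counts were 4 and 3 too, with Erbb4 at 8.77, Kit at 8.47 and Egfr at -4.08 on the log2 scale. Erbb4, a neuregulin receptor, measured 187 and 349 CPM in paw Merkel and 373 and 438 CPM in back Merkel libraries against at most 0.92 CPM in IFE libraries (log2 fold change 9.85 and 9.68, adjusted p = 8.71e-05 and 6.45e-05). Kit, the receptor for stem cell factor, measured 194 and 185 CPM in paw and 103 and 134 CPM in back Merkel libraries against at most 0.815 CPM in IFE libraries (log2 fold change 8.38 and 8.35, adjusted p = 1.67e-05 and 1.4e-05). Kit is also 1 of 7 melanocyte markers. The whole list, Kit included, summed to 126 to 213 CPM in Merkel and 8.56 to 16.8 CPM in IFE libraries. Most of the sum in each Merkel library was Kit itself. Tyrp1 was at 0 in all 4 Merkel libraries, and Dct, Mlana and Tyr were at 0 in Merkel library 2 of both sites. Mitf measured 11.3 to 21.2 CPM in Merkel and 2.89 to 11.2 CPM in IFE libraries (log2 fold change 2.13, adjusted p = 0.199, in paw and 0.98, adjusted p = 0.478, in back skin), and Pmel 0.293 to 5.70 CPM and 2.55 to 5.08 CPM. The part of melanocyte transcripts in the level of Kit was not tested. Alk was higher at both sites too, with 22.7 and 32.5 CPM in paw and 118 and 100.4 CPM in back Merkel libraries. IFE libraries held at most 0.099 CPM of it (adjusted p = 7.51e-05 and 1.59e-05). At these levels only Merkel libraries could carry Alk past the filter, so its tests are no separate evidence of a difference. In paw Alk did not pass by limma on log2(FPKM + 1) (adjusted p = 0.0633, and 0.0875 without a filter). Egfr, the epidermal growth factor receptor, was lower at both sites (log2 fold change -2.74, adjusted p = 0.0173, in paw, rising to 0.0741 when paw Merkel library 2 was dropped, and -4.62, adjusted p = 0.000718, in back skin). Erbb2 was lower in paw too (log2 fold change -3.07, adjusted p = 0.00602), and the other calls in these counts were Epha2 and Met, lower in paw, and Axl and Erbb2, lower in back skin. Igf1r was higher in back skin (log2 fold change 1.33, adjusted p = 0.0269), which no longer held when either back Merkel library or back IFE library 1 was dropped (adjusted p up to 0.207). Egfr and Igf1r were the most abundant of the list, each at 42.4 FPKM over all libraries.

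Of 6 splicing regulators known to act on Fgfr2, Rbfox2 was higher in Merkel cells at both sites (log2 fold change 1.57, adjusted p = 0.0093, in paw, rising to as much as 0.0993 when either paw IFE library was dropped, and 2.33, adjusted p = 0.000495, in back skin, where it was 2.46 without back IFE library 2). In paw 1 was higher and 0 lower, and in back skin 2 were higher and 1 lower, beside 6.21% and 15.4% of all genes called, and 2 and 0 in back skin without back IFE library 2. Esrp1, which favours the epithelial form of Fgfr2, measured 91.0 and 85.4 CPM in back Merkel against 209 and 189 CPM in back IFE libraries (log2 fold change -1.17, adjusted p = 0.0377). That call ended when any 1 of the paw IFE, back Merkel or back IFE libraries was dropped (adjusted p up to 0.181). Ptbp2, the neural polypyrimidine tract protein, was higher in back skin (log2 fold change 1.98, adjusted p = 0.0146), which no longer held when back Merkel library 1 or back IFE library 1 was dropped (adjusted p up to 0.0807). Ptbp1 and Rbfox2 were the most abundant of the list, at 101 and 76.3 FPKM. The splice forms of Fgfr2 were not analysed here.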
